A study of Mus musculus with 18 samples.

Results

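The clustered histone genes are the protein-coding genes of the mouse histone clusters 1 to 4, the rows named Hist1h, Hist2h, Hist3h or Hist4h. There were 67 of them among 34385 genes of a knockdown table and 34396 genes of an overexpression table. They were chosen by name and by level: a gene was kept if 3 or more of a table's 9 libraries had 1 part per 1000000 (ppm) or more of their summed signal in it. This left 55 in the knockdown table (5 of 6 H1, 16 of 18 H2a, 14 of 18 H2b, 9 of 12 H3 and 11 of 13 H4 genes) and 51 in the overexpression table (5, 16, 12, 9 and 9). These levels chose the genes, so that being detected is no result here, and the 51 or 55 genes kept are not the whole family. No gene passed through the libraries of 1 group only, but some passed through those of 2 groups. Hist1h4k had no scramble library at 1 ppm in the knockdown table. Hist1h2ak had no Nmnat2 overexpression library at 1 ppm in the other table. RNA was sequenced from 18 samples of mouse retina in 6 groups of 3. All groups were ICR mice whose retinas received plasmids by electroporation at postnatal day 0.5, with an EGFP plasmid added, and were then cultured as explants for 3 days before EGFP-positive cells were sorted. The knockdown table holds a scramble control, a Nmnat1 knockdown and a Nmnat2 knockdown, all by short hairpin RNA (shRNA). The overexpression table holds an empty vector control, Nmnat1 overexpression and Nmnat2 overexpression. NMNAT enzymes make NAD+, NMNAT1 in the nucleus and NMNAT2 in the cytoplasm and axon. The promoters that drove the shRNAs and the coding sequences, and the number of animals or retinas behind a sample, are not known from the labels.

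Histones H2A, H2B, H3 and H4 form the core that DNA wraps around, and H1 binds the linker DNA between cores. Most clustered histone genes are transcribed in S phase, when new DNA has to be packaged, and their mRNAs end in a short stem-loop rather than in a poly(A) tail. The stem-loop is bound by the protein SLBP, and the mRNA is cut just behind it with the help of the U7 small nuclear ribonucleoprotein. Some clustered genes are also known to give polyadenylated mRNA in cells that have left the cell cycle. The retina at birth holds dividing progenitors beside newly formed neurons, above all rods. The cDNA kit named in the labels, SMART-Seq v4, primes from poly(A), so that these libraries sample the polyadenylated mRNAs of the clustered genes first, and the level of an mRNA that ends at its stem-loop was not measured separately.

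The stem-loop itself is shown because it is the feature that sets these mRNAs apart, and because its letters differ between the H4 genes and the others. A search of the GENCODE M21 transcript models (GRCm38) for the histone stem-loop consensus behind the stop codon found it in 45 of the 67 genes: 4 of 6 H1, 11 of 18 H2a, 9 of 18 H2b, 9 of 12 H3 and 12 of 13 H4 genes. Of the other 22 genes, 13 have a model with no base after the stop codon, so that a stem-loop could not be found there. The same holds for Hist1h2af and Hist1h2ah, whose models have 1 and 2 bases after it. There were 8 forms of 16 bases, of which the 3 most frequent are printed with the bases of the stem in capitals and those of the loop in lower case.
H1, H2a, H2b and H3 form (25 genes): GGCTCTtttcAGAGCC
H4 form (7 genes): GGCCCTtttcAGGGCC
Form with another last loop base (6 genes): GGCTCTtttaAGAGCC
The first form was found in Hist1h1c, Hist1h2ap, Hist2h2aa2, Hist3h2a and Hist3h2ba among others, and in no H4 gene. The second was found in H4 genes only, Hist1h4d and Hist1h4h among them, and the other 5 H4 genes with a stem-loop had 3 further forms. The models also differ in how much sequence follows the stem-loop. The model of Hist1h2ap (chr13:21833026-21833507, minus strand) ends 3 bases behind it and that of Hist1h4h (chr13:23531050-23531519, plus strand) 46 bases behind it. The model of Hist1h4d (chr13:23581598-23582735, plus strand) runs on for 770 bases, that of Hist1h1c (chr13:23738808-23740367, plus strand) for 840 bases and that of Hist3h2a (chr11:58954685-58956830, plus strand) for 1643 bases. In Hist1h2bc (chr13:23684199-23692908, plus strand) no stem-loop was found in the 742 bases that its model has after the stop codon. A poly(A) signal lies within the last 40 bases of the model in 17 of the 67 genes.

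Promoters are shown for the genes that the comparisons below turn on, as RefSeq windows of 250 bases before to 50 bases after the start (GRCm38.p6, read in the direction of the gene). Capitals mark a TATAAA box or a CCAAT box on either strand, which do not overlap each other in the printed windows.
Hist3h2ba, chr11:58948661-58948960, plus strand: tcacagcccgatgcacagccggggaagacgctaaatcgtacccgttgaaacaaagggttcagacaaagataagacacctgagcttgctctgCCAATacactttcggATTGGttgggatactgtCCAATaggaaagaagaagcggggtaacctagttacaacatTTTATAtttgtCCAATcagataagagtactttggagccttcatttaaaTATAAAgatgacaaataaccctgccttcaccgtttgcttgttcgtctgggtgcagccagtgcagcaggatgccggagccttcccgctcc
Hist1h4h, chr13:23530794-23531093, plus strand: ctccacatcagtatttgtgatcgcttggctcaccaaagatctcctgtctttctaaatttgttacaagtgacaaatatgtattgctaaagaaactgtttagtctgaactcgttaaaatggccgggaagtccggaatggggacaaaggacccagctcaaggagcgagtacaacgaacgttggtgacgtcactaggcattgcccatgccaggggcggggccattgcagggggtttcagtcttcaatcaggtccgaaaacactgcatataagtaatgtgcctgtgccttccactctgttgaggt
Hist1h4d, chr13:23581318-23581617, plus strand: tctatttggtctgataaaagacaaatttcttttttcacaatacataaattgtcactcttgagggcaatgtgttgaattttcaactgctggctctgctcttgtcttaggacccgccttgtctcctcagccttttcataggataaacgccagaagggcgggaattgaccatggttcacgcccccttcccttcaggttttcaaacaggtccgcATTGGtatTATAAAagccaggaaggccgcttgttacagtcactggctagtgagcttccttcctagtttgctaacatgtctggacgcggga
Hist1h1c, chr13:23738557-23738856, plus strand: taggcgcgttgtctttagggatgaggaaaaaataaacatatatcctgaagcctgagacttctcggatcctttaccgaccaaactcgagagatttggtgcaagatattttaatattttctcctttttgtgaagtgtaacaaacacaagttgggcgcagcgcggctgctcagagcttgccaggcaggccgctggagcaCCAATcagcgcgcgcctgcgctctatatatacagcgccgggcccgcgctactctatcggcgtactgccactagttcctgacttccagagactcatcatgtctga
The Hist1h4h window holds neither motif, which says only that these letters are not in it. RefSeq entries were matched for 60 of the 67 genes, not including Hist1h2bc. Among these genes only Hist1h2be had 2 windows, and a motif in either of them was counted. TATAAA was found in 34 of the 60 genes, against 13.6% of all 32851 promoter windows of the same length. CCAAT was found in 51 of the 60, against 37.4% of all windows. The octamer ATGCAAAT was found in 14 of the 60, against 1.74% of all, and those 14 were 7 H2a and 7 H2b genes. All 6 H1, 16 H2a, 16 H2b and 10 H3 genes matched held CCAAT in a window, as did 3 of the 12 H4 genes. Since H2a and H2b genes often lie head to head, 20 of the windows overlap that of another clustered gene and their motifs were counted for both.

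By chromosome, 54 of the genes lie on 13, 10 on 3, 2 on 11 and 1 on 6; the coordinates printed for a gene are those of its whole annotated locus. The locus of Hist1h2bc is longer than its transcript model of 1156 bases, which is spliced. Many are near copies of one another. Over 50% of the 31-base stretches of the transcript also occur in another transcript for 41 of the 67 genes. The share was 93.4% for Hist1h2ap, mainly with Hist1h2ao, and 100% for Hist2h2aa2. How reads were split between such copies is not known, and the values of Hist1h2ap, Hist2h2aa2, Hist1h3i (93.2%), Hist1h2ah (92.5%), Hist1h4k (86.2%) and Hist1h2ak (74.4%) are therefore uncertain as values of 1 gene. The share is lower for Hist1h4h (50.0%), Hist3h2ba (37.2%), Hist1h1e (34.7%), Hist1h2bc (34.5%), Hist3h2a (32.1%), Hist1h4d (14.7%), Hist1h1c (11.4%) and Hist1h1b (3.9%). Part of the Hist1h1e transcript overlaps Hist1h2be on the same strand, and Hist3h2a overlaps Trim17. The library kit keeps no strand, and reads from a gene and from one that overlaps it or lies antisense to it cannot be told apart.

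In the checks of the libraries, Nmnat1 was at 19.0 ± 1.99 ppm in scramble (mean ± SD, n = 3) and at 7.80 ± 0.642 ppm after its knockdown, and at 19330 ± 7372 ppm after its overexpression. Nmnat2 was at 2.96 ± 2.91 ppm in scramble and 0.927 ± 0.390 ppm after its knockdown, a difference within the spread of scramble, and at 21580 ± 1072 ppm after its overexpression. In the empty vector Nmnat1 was at 20.85 ± 1.97 ppm and Nmnat2 at 1.89 ± 0.788 ppm. Nmnat1 was also higher with Nmnat2 overexpressed (42.4 ± 3.08 ppm), and Nmnat2 with Nmnat1 overexpressed (5.23 ± 1.84 ppm). The cause was not tested. The Nmnat2 knockdown library named N2_2 stood apart on the first principal component of the knockdown table (129 against -31.2 to -5.83) and had 6.51% of its signal in mitochondrially encoded genes against 2.29% to 4.67%. The 3 overexpression libraries numbered 1, 1 in each group, lay at 24.5 to 91.4 on the first component against -50.0 to -4.14. Results are therefore given with these libraries and, where it changes a call, without them. The labels do not say whether samples of a group came from separate animals, so that the spread behind the p-values is that of these samples and could be technical. In bulk samples, fewer cells of a type and less RNA per cell cannot be told apart. Photoreceptor precursor markers were abundant in every group (7 genes, lowest sum 2069 ppm), and none of them was at 0 in every library.

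Levels differed widely among the genes. Averaged over the 9 libraries of the knockdown table, Hist1h2ap, an H2A gene, was highest at 333 ppm, followed by the H2B gene Hist3h2ba at 174 ppm, the H1 gene Hist1h1c at 143 ppm, Hist2h2aa2 at 101 ppm and the H1 gene Hist1h1e at 75.2 ppm. These 5 genes held 73.1% of the signal of the 55. The same 5 led the overexpression table with 72.7% of the signal of the 51, at 195, 159, 109, 59.9 and 60.9 ppm in the order just given. The highest H3 gene was Hist1h3i (28.9 and 24.6 ppm in the knockdown and the overexpression table), and the highest H4 gene was Hist1h4d (12.7 ppm in the knockdown table). Hist1h2bc ranked eighth in both tables, at 27 and 19.5 ppm. Most members were rare: 34 of 55 and 36 of 51 had a mean under 5 ppm. Within a table these levels are per length of transcript, and the tables were normalized separately, so that levels were not compared between them.

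**Figure D1:**
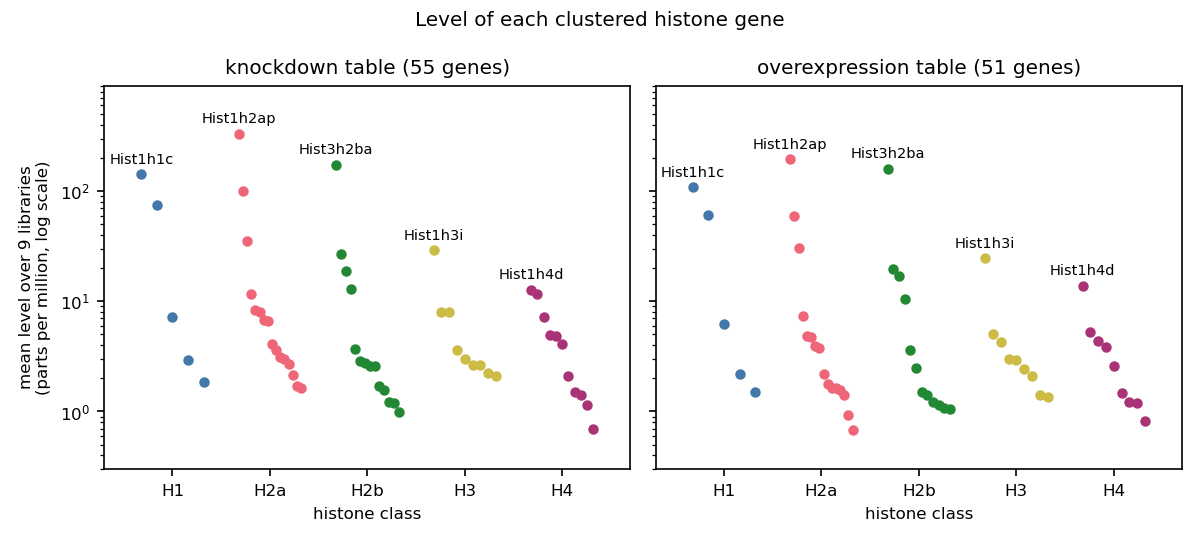
Mean level of each clustered histone gene over the 9 libraries of its table (ppm, log axis), by histone class, with 55 genes in the knockdown table and 51 in the overexpression table. A single gene stands well above the rest of its class in H2b and H3, Hist1h2ap is highest of all at 333 and 195 ppm, and most genes lie under 10 ppm.

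The filter left out 12 genes in the knockdown table and 16 in the overexpression table. In both tables these were Hist1h1t, Hist1h2aa, Hist1h2ba, Hist1h2bb, Hist1h2bl, Hist1h2bn, Hist1h3b, Hist1h3c, Hist1h3g, Hist1h4b and Hist1h4m. Hist2h2ab was under the filter in the knockdown table only, and Hist1h2af, Hist1h2bf, Hist1h2bk, Hist1h4f and Hist1h4j in the overexpression table only. By the third-highest library, which decides, Hist1h2bj (1.30 ppm) and Hist1h4f (1.39 ppm) were just inside in the knockdown table, and Hist2h2ab (0.791 ppm) and Hist1h2aa (0.703 ppm) just outside. In the overexpression table Hist2h2ab (1.01 ppm) and Hist1h2be (1.13 ppm) were just inside, and Hist1h4j (0.986 ppm) and Hist1h2bn (0.859 ppm) just outside. At these levels 1 ppm of a 500-base model corresponds to between 2.53 and 4.64 reads, as estimated from the steps of low values, so that the rare genes rest on few reads. By the same estimate 1 ppm is fewer reads in shorter models, such as those of Hist1h4k (312 bases) and Hist1h2ak (393 bases).

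Summed over a class, the mean signal of the kept genes was lower in the Nmnat1 knockdown than in scramble in all 5 classes, with no overlap between libraries in all but H2b. In the Nmnat2 knockdown the direction in H1, H2a and H3 depends on the scaling. All 55 genes summed to 1191 ± 49.4 ppm in scramble, 944 ± 19.7 ppm in the Nmnat1 knockdown and 1254 ± 218 ppm in the Nmnat2 knockdown (mean ± SD, n = 3 each). The H1 sum was 269 ± 14 ppm in scramble, 194 ± 12.8 ppm in the Nmnat1 knockdown and 226 ± 16.3 ppm in the Nmnat2 knockdown. The lower H1 sum of the Nmnat2 knockdown depends on the scaling, since with median-of-ratios scaling it was 256 ± 52.1 ppm against 255 ± 16.4 ppm in scramble. The H4 sum was 54.3 ± 4.11, 35.9 ± 3.25 and 66.9 ± 4.12 ppm, and the 3 groups did not overlap. The H2b sum was 230 ± 22.7, 195 ± 18.6 and 337 ± 5.11 ppm, so that the Nmnat2 knockdown stood above both other groups. The H2a sum was 567 ± 21.0, 465 ± 16.2 and 565 ± 188 ppm, and the width of the last group came from N2_2, at 782 ppm. With median-of-ratios scaling the H2a sum of the Nmnat2 knockdown was 654 ± 310 ppm against 537 ± 3.43 ppm in scramble. The H3 sum was 70.5 ± 5.82, 53.7 ± 11.7 and 58.8 ± 14.7 ppm, while with median-of-ratios scaling that of the Nmnat2 knockdown was 67.6 ± 26.3 ppm against 66.8 ± 6.03 ppm in scramble.

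In the overexpression table the H1 and H2a sums were lower in both arms than in the empty vector, and the H2b sums were alike. The H1 sum was 249 ± 10.2 ppm in the empty vector, 136 ± 19.9 ppm with Nmnat1 and 154 ± 38.6 ppm with Nmnat2 overexpressed, and neither arm overlapped the control (239.5 to 260 ppm in the control, at most 182 ppm in the arms). The H2a sum was 383 ± 13.4, 300.4 ± 9.38 and 282 ± 43.2 ppm, again without overlap. The H2b sum was 217 ± 13.9, 218 ± 29.2 and 224 ± 46.7 ppm. The H3 sum was 54.1 ± 6.52, 38.2 ± 9.38 and 49.0 ± 5.81 ppm, and the H4 sum 29.2 ± 0.582, 32.4 ± 9.51 and 42.4 ± 7.45 ppm. A class sum follows its 1 or 2 most abundant genes, and no test was run on sums of chosen genes.

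**Figure D2:**
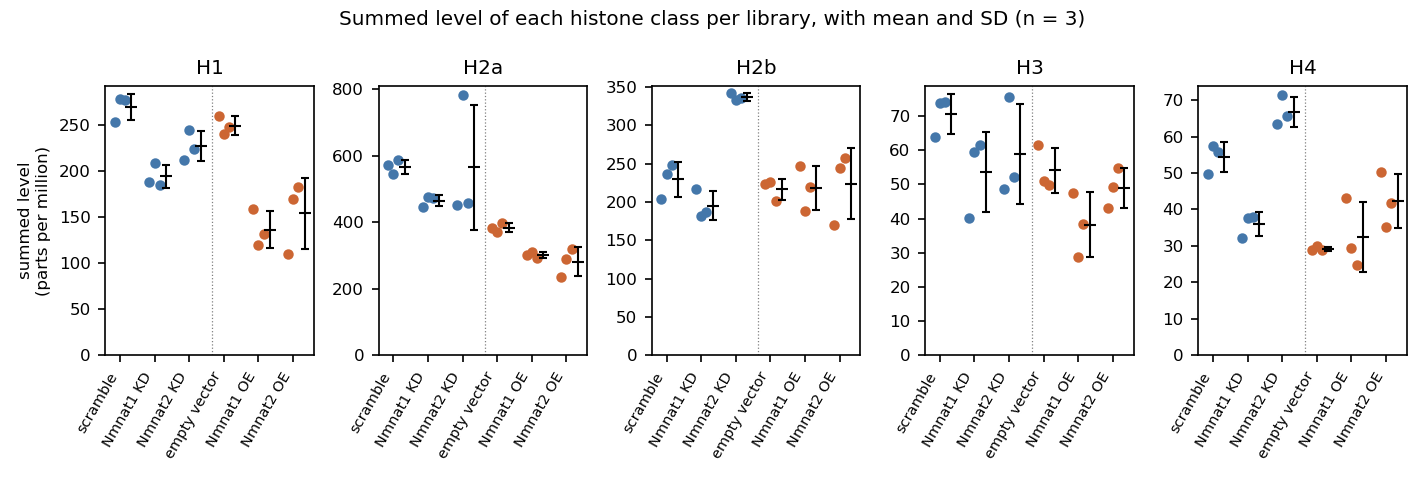
Summed level (ppm) of the kept clustered histone genes of each class in every library (points), with mean and SD (n = 3) per group, knockdown table left of the dotted line and overexpression table right of it. H1 sums of both overexpression arms lie below all 3 empty vector libraries, and H2b sums of the Nmnat2 knockdown (333 to 343 ppm) lie above all other knockdown-table libraries.

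The first comparison asked what knockdown of Nmnat1, the nuclear enzyme, did to these genes. None of the 55 passed the test (limma on log2(ppm + 1), all 3 groups of the table in 1 fit, Benjamini-Hochberg adjustment over 22233 genes, two-sided, threshold 0.05), against 0.144% of all genes tested. At an unadjusted p under 0.05 there were 7 genes, 1 higher and 6 lower, where 10.5% of all genes passed. The log2 fold changes were below 0 in 41 of the 55 genes and above 0 in 14, with a median of -0.27 against 0 for all genes tested. All 5 H1 genes, 10 of 16 H2a, 11 of 14 H2b, 7 of 9 H3 and 8 of 11 H4 genes were below 0. The 3 knockdown libraries lay below the 3 scramble libraries in 9 genes, 16.4% of the 55, against 12% of all genes tested, and above them in 1, against 12.8%.

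The smallest p was that of Hist1h1b, a linker histone gene (chr13:21779883-21780625, minus strand). It was at 9.69, 13.6 and 10.5 ppm in the scramble libraries and at 4.64, 2.23 and 2.27 ppm in the Nmnat1 knockdown libraries. Every knockdown library was below every scramble library. The mean fell short of a call: the log2 fold change was -1.64 ± 0.35 (SE) at an adjusted p of 0.128. Hist1h4k, an H4 gene (chr13:21750194-21750505, minus strand), was at 0.713, 0 and 0 ppm in scramble and at 3.91, 3.65 and 4.25 ppm in the Nmnat1 knockdown. The groups did not overlap, at levels of few reads, and the log2 fold change was 2.04 ± 0.55 at an adjusted p of 0.218. Hist1h1c was at 158, 160 and 157 ppm in scramble and at 103, 121 and 104 ppm in the knockdown. All 3 knockdown libraries were lower, by 1.45-fold on average, and the log2 fold change was -0.53 ± 0.16 at an adjusted p of 0.263.

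Hist1h2ap, the most abundant gene, was at 358, 355 and 401 ppm in scramble and at 292, 304 and 304 ppm in the Nmnat1 knockdown. Again the groups did not overlap, and the log2 fold change of -0.31 ± 0.21 had an adjusted p of 0.648. Its signal together with its near copy Hist1h2ao was 378 ± 29.8 ppm in scramble and 308 ± 8.76 ppm in the knockdown, so that the same difference was seen for the pair. Hist1h2bc was at 24.7, 20.4 and 19.9 ppm in scramble and at 24.1, 9.45 and 10.3 ppm in the knockdown. Of the knockdown libraries 1 lay among the controls and the others below them (log2 fold change -0.65 ± 0.33, adjusted p 0.533). Of the other leading genes, Hist3h2ba had a log2 fold change of -0.28 (adjusted p 0.587), Hist1h3i of -0.50 (0.632), Hist1h4d of -0.87 (0.673) and Hist2h2aa2 of -0.07 (0.958).

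Without N2_2, which belongs to the third group but enters the common estimate of the spread, 5 of the 55 genes passed, against 8.11% of all genes tested (5 genes are 9.09%). By direction they were 1 higher, against 4.61% of all genes, and 4 lower, against 3.49%. Hist1h4k was then higher (adjusted p 0.04997), and Hist1h1b (0.0119), Hist1h1c (0.00575), Hist1h2ap (0.0283) and Hist3h2a (0.0169) lower. The share is close to that of all genes. The summed level of 6 markers of cycling cells was 43.9 to 48.3 ppm in scramble and 16.7 to 35.6 ppm in the Nmnat1 knockdown, that of 7 progenitor markers 408 to 425 and 177 to 183 ppm, and that of 7 rod markers 4959 to 5269 and 5754 to 5887 ppm. That of 6 amacrine markers was 126 to 145 and 30.5 to 35.2 ppm, and that of 5 Müller glia markers 473 to 478 and 253 to 259 ppm. The part of these cells in the lower H1 and H4 values was not tested.

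The same question was asked of Nmnat2, the cytoplasmic enzyme. None of the 55 genes passed in the Nmnat2 knockdown, against 0.436% of all genes tested. At an unadjusted p under 0.05 there were 8 genes, 6 higher and 2 lower, where 16.8% of all genes passed. The log2 fold changes were above 0 in 24 genes and below 0 in 31, with a median of -0.04 against -0.23 for all genes tested. That shift of all genes depends on the scaling: it was -0.05 with median-of-ratios scaling and 0 with quantile normalization, where the members' medians were 0.05 and 0.24. Groups did not overlap in 4 genes that were higher (7.27% of the 55, against 4.73% of all genes tested) and in 4 that were lower (7.27%, against 17.2%). Of the H1 genes 4 of 5 were below 0, and of the H2b genes 6 of 14 were above 0.

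Hist3h2ba, an H2B gene outside the main cluster, had the smallest p. It was at 131, 157 and 177 ppm in scramble and at 232, 254 and 235 ppm in the Nmnat2 knockdown, N2_2 included. All 3 knockdown libraries were above all 3 controls, by 1.55-fold on average, and the log2 fold change was 0.64 ± 0.16 at an adjusted p of 0.111. Hist1h2bc was at 24.7, 20.4 and 19.9 ppm in scramble and at 49.5, 37.3 and 47.6 ppm in the knockdown. Here too every knockdown library was above every control, by 2.07-fold on average, and the log2 fold change was 1.01 ± 0.33 at an adjusted p of 0.173. Hist1h2ah, an H2A gene of high similarity to Hist1h2ad, was at 0, 0 and 1.01 ppm in scramble and at 13.6, 0.721 and 10.9 ppm in the knockdown. N2_2 alone lay within the controls, and the log2 fold change was 2.41 ± 0.77 at an adjusted p of 0.163.

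Other genes split along the same line between N2_2 and the other libraries of the Nmnat2 knockdown. Hist1h4d was at 12.3, 17.4 and 9.62 ppm in scramble and at 27, 3.09 and 25.3 ppm in the knockdown, with N2_2 below all controls and the others above them (log2 fold change 0.07 ± 0.64, adjusted p 0.974). Hist1h1e, named here after its values were seen, was at 78.4, 99.1 and 102 ppm in scramble and at 39.5, 88.1 and 39.4 ppm in the knockdown, with N2_2 again on the side of the controls (-0.83 ± 0.29, adjusted p 0.199). Hist1h2ap was at 260.0, 454 and 270.0 ppm in the knockdown, where N2_2 lay above the controls and the others below them (-0.23 ± 0.21, adjusted p 0.629). Hist1h1c was at 164, 142 and 175 ppm, around its scramble level of 158 ± 1.5 ppm, at an adjusted p of 0.972. Hist1h3i was at 20.2, 40 and 26.1 ppm against 34.4, 27.8 and 38.8 ppm in scramble and the groups overlapped (adjusted p 0.727).

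Without N2_2 the Nmnat2 knockdown had 6 of the 55 genes past the threshold (10.9%), against 15% of all genes tested. They were 4 higher, against 7.73% of all genes, and 2 lower, against 7.25%. Hist1h2ah (log2 fold change 3.39, adjusted p 0.00280), Hist1h2bc (1.13, 0.0463), Hist1h4d (0.98, 0.0463) and Hist3h2ba (0.60, 0.0121) were higher. Hist1h1e (-1.21, 0.000342) and Hist1h2ap (-0.48, 0.00320) were lower. The share of called genes lies below that of all genes. The cycling markers summed to 20.4 to 28.5 ppm in this group, below scramble in every library, while the rod markers summed to 2069 to 3326 ppm. The markers of amacrine cells summed to 219 to 499 ppm, against 126 to 145 ppm in scramble. The progenitor markers summed to 218 to 549 ppm (median 541), against 408 to 425 ppm in scramble. Those of Müller glia summed to 257 to 427 ppm, against 473 to 478 ppm. Their part in the H2b values was not tested.

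The direct comparison of both knockdowns gave 3 of the 55 genes past the threshold, all lower with Nmnat1 than with Nmnat2 knocked down (5.46%), against 2.06% of all genes tested and 0.715% for lower genes alone. This use of the comparison was added after the values were seen. Hist1h4h was at 2.89, 4.04 and 3.09 ppm in the Nmnat1 knockdown and at 15.1, 29.9 and 20.9 ppm in the Nmnat2 knockdown, against scramble values of 7.98, 6.04 and 15.8 ppm. All Nmnat1 knockdown libraries were below scramble, and the Nmnat2 knockdown libraries overlapped it. The groups differed 6.58-fold in mean level, and the difference was -2.36 ± 0.39 on the log2 scale at an adjusted p of 0.0140. Hist3h2ba was at 135, 130 and 116 ppm in the Nmnat1 knockdown, below the 232 to 254 ppm of the Nmnat2 knockdown (difference -0.92 ± 0.16, adjusted p 0.0216). For Hist1h2bc the difference was -1.66 ± 0.33 at an adjusted p of 0.0316, and the highest Nmnat1 knockdown library (24.1 ppm) lay below the lowest Nmnat2 knockdown library (37.3 ppm).

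The Nmnat1 knockdown libraries lay below those of the Nmnat2 knockdown in 12 genes (21.8%), against 6.37% of all genes tested, and above them in 1 (1.82%), against 19%. The median difference was -0.15 over the members and 0.25 over all genes. Its direction rests on N2_2: without this library the members' median was 0.13, with 30 genes above 0 and 25 below, against 0.18 over all genes. The median over all genes moved to 0.06 with median-of-ratios scaling, where the median over the members was -0.36. Of the 3 calls, that of Hist1h2bc was lost without any 1 of the scramble libraries (adjusted p 0.0538 to 0.0643), without N1_2 or N1_3 (0.149 and 0.159) and without N2_1 or N2_3 (0.102 and 0.101). Those of Hist1h4h and Hist3h2ba were lost without any 1 Nmnat1 knockdown library (0.0621 to 0.129) and without N2_3 (0.0544 and 0.0693), and that of Hist3h2ba also without N2_1 (0.0643). With the deposited values all 3 were lost (0.127 to 0.510), and those of Hist3h2ba and Hist1h2bc also with a fit on both arms alone (0.0720 and 0.109) and with no mean-variance trend (0.103 and 0.0765). Without N2_2, 8 of the 55 genes passed (14.5%), against 13.1% of all genes tested. They were 7 lower, against 6.78% of all genes, and 1 higher, against 6.28%. These 3 and Hist3h2a, named after its values were seen (adjusted p 0.000833), Hist1h1c (0.00197), Hist1h4d (0.00211) and Hist1h2ah (0.0216) were lower, and Hist1h1e (0.00124) higher.

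**Figure D3:**
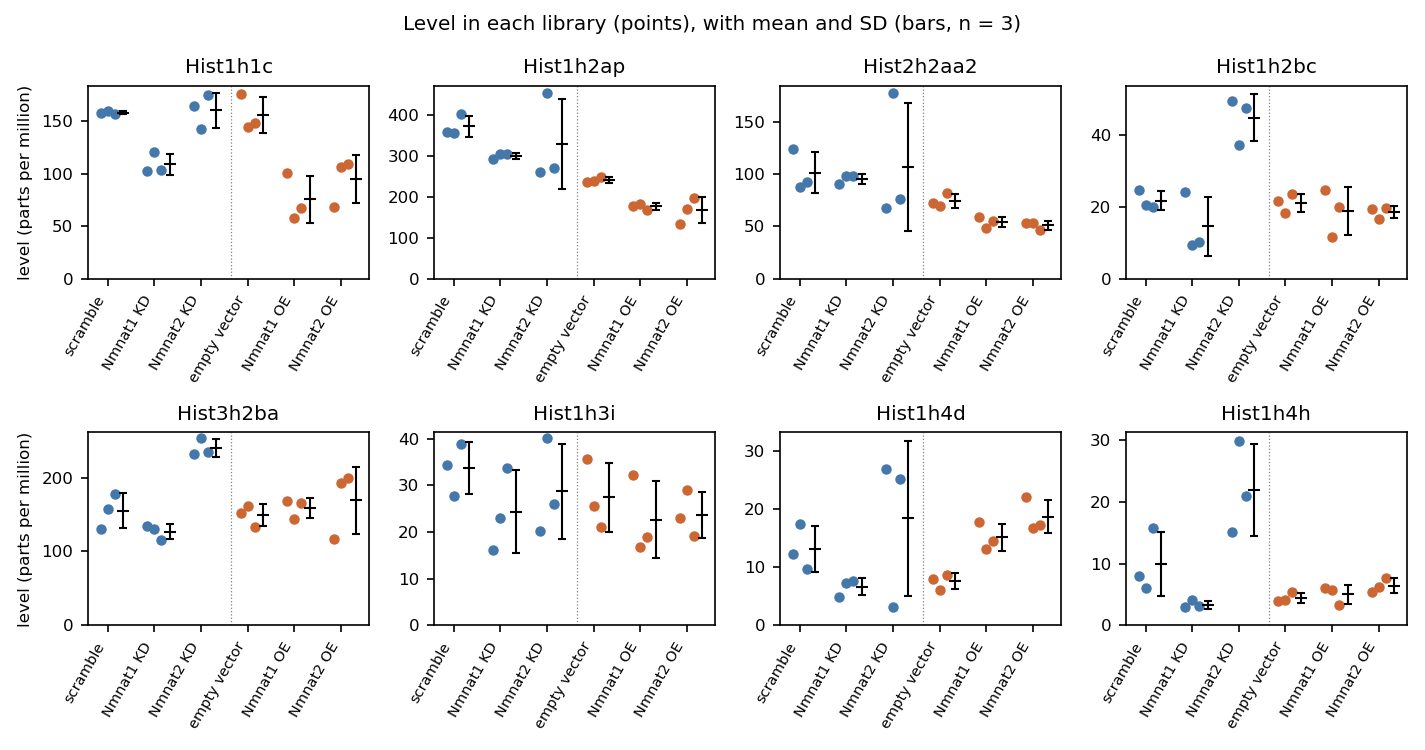
Level (ppm) of 8 clustered histone genes in every library (points), with mean and SD (bars, n = 3), knockdown table left of the dotted line and overexpression table right of it. Hist1h2bc, Hist3h2ba and Hist1h4h were higher in all Nmnat2 knockdown than in all Nmnat1 knockdown libraries, and Hist1h4d was higher in both overexpression arms (13.2 to 22.0 ppm) than in the empty vector (6.14 to 8.66 ppm).

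Overexpression of Nmnat1 was compared with the empty vector in the other table. None of the 51 genes passed, against 0.121% of all 20725 genes tested. At an unadjusted p under 0.05 there were 10 genes, 2 higher and 8 lower, where 9.57% of all genes passed. The log2 fold changes were below 0 in 35 genes and above 0 in 16, with a median of -0.33 against -0.04 for all genes. By class, 12 of 16 H2a, 8 of 9 H3, 6 of 9 H4, 6 of 12 H2b and 3 of 5 H1 genes were below 0. The arm lay below the control in 9 genes (17.6%), against 10.1% of all genes tested, and above it in 1 (1.96%), against 7.74%.

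Hist1h1c had the smallest p in this comparison. It was at 176, 144 and 148 ppm in the empty vector libraries and at 101, 58.2 and 67.8 ppm with Nmnat1 overexpressed. Every library of the arm was below every control, by 2.07-fold on average, and the log2 fold change was -1.07 ± 0.22 at an adjusted p of 0.111. Hist1h4d was at 8.05, 6.14 and 8.66 ppm in the empty vector and at 17.8, 13.2 and 14.6 ppm in the arm. It was higher in every library, by 1.99-fold on average (log2 fold change 0.91 ± 0.20, adjusted p 0.122). Hist2h2aa2 was at 72.4, 69.4 and 82.1 ppm in the empty vector and at 58.5, 48.8 and 54.8 ppm in the arm, lower in every library (-0.46 ± 0.12, adjusted p 0.184). With its copy Hist2h2aa1 added, the levels were 79.8 ± 6.10 and 60.3 ± 7.94 ppm.

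Hist1h2ap was at 237, 238 and 249 ppm in the empty vector and at 179, 183 and 168 ppm in the arm. The groups did not overlap, and the log2 fold change was -0.45 ± 0.13 at an adjusted p of 0.239. Hist1h2bc was at 21.6, 18.3 and 23.5 ppm and at 24.8, 11.8 and 20.1 ppm, and the groups overlapped (-0.21 ± 0.24, adjusted p 0.890). Hist3h2ba was at 152, 162 and 134 ppm and at 168, 143 and 165 ppm, again with overlap. Hist1h3i was at 35.6, 25.6 and 21.0 ppm and at 32.2, 16.9 and 18.9 ppm, with overlap and an adjusted p of 0.845.

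Against the empty vector, Nmnat2 overexpression gave 1 call. Hist1h4d, an H4 gene, was at 22.0, 16.8 and 17.3 ppm with Nmnat2 overexpressed against 8.05, 6.14 and 8.66 ppm in the empty vector. It rose 2.46-fold in mean level, with every library of the arm above every control, and the log2 fold change was 1.20 ± 0.20 at an adjusted p of 0.0361. It is 1 of the 51 genes (1.96%), against 0.55% of all genes tested and 0.203% for higher genes alone, and the share rests on this gene alone. The difference between the arms in Hist1h4d, like that in the other 50 genes, did not pass (0 of 51, against 0.0193% of all genes tested, for Hist1h4d -0.28 ± 0.20, Nmnat1 minus Nmnat2, adjusted p 0.953). The call was lost without any 1 empty vector library (adjusted p 0.0954 to 0.201), without Nmnat1 library 2 or 3 (0.0670 and 0.0726), without Nmnat2 library 2 or 3 (0.109 and 0.120), with no filter (0.0515), with the deposited values (0.0927), with a fit on both groups alone (0.0724) and with no mean-variance trend (0.113). The exact permutation test over the 3 and 3 libraries gave 0.1, the smallest p it can give.

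The other members in this comparison were mostly lower. At an unadjusted p under 0.05 there were 10 genes, 2 higher and 8 lower, where 10.3% of all genes passed. The log2 fold changes were below 0 in 30 genes and above 0 in 21, with a median of -0.17 against 0.06 for all genes. The arm lay below the control in 10 genes (19.6%), against 7.73% of all genes tested, and above it in 2 (3.92%), against 8.6%. H2a genes were 6 of those 10. Of the H1 genes 3 of 5 were below 0, of the H2a genes 12 of 16, of the H2b genes 5 of 12, of the H3 genes 6 of 9 and of the H4 genes 4 of 9.

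Hist1h2ak, an H2A gene near 1 ppm, was at 2.86, 3.23 and 2.63 ppm in the empty vector and at 0.416, 0.469 and 0 ppm with Nmnat2 overexpressed. The groups did not overlap, and the log2 fold change was -1.61 ± 0.34 at an adjusted p of 0.0788. Hist2h2aa2 was at 53.2, 53.4 and 46.2 ppm, below the 69.4 to 82.1 ppm of the empty vector, with a log2 fold change of -0.54 ± 0.12 and an adjusted p of 0.0898. With Hist2h2aa1 added the arm was at 54.1 ± 1.31 ppm. Hist1h2ap was at 134, 170.0 and 197 ppm, below all controls (-0.55 ± 0.13, adjusted p 0.112). Hist1h1c was at 68.4, 106 and 110 ppm, below all controls as in the other arm (-0.74 ± 0.22, adjusted p 0.225). Hist1h2bc was at 19.4, 16.6 and 19.7 ppm, within the range of the empty vector but for 1 library (-0.17 ± 0.24, adjusted p 0.880).

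Without the libraries numbered 1, the calls in both arms were more. With Nmnat1 overexpressed 6 of 51 genes passed (11.8%), against 8.04% of all genes tested, 4 of them lower, against 3.61% of all genes, and 2 higher, against 4.43%. Hist1h1c (-1.21, adjusted p 0.000782), Hist1h1e (-0.75, 0.00613), Hist1h2ap (-0.47, 0.0213) and Hist2h2aa2 (-0.54, 0.0425) were lower, and Hist1h4d (0.84, 0.0431) and Hist3h2a (0.69, 0.0139) higher. With Nmnat2 overexpressed 8 of 51 passed (15.7%), against 5.9% of all genes tested, 6 of them lower, against 2.62% of all genes, and 2 higher, against 3.27%. Those were the same 6 genes in the same directions and, lower, Hist1h2ak (-1.69, 0.0345) and Hist2h2bb (-0.70, 0.0461), the last named after its values were seen. Hist1h1c then also differed between the arms (-0.77, adjusted p 0.0316), the only 1 of the 51, against 0.183% of all genes tested. Both arms share their control libraries, so that this likeness is not independent. In this form each group had 2 libraries.

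The rod markers summed to 5161 to 5575 ppm in the empty vector, 2766 to 4583 ppm with Nmnat1 and 2690 to 3545 ppm with Nmnat2 overexpressed. The amacrine markers summed to 63.0 to 76.0, 124 to 247 and 88.8 to 206 ppm. The progenitor markers summed to 389 to 543, 449 to 762 and 334 to 766 ppm. Those of Müller glia summed to 499 to 567, 539 to 725 and 428 to 745 ppm. The cycling markers summed to 26.3 to 38.5, 26.3 to 35.8 and 18.8 to 30.6 ppm and overlapped between the groups. None of the markers in these lists was at 0 in every library. Their part in the lower H1 and H2a values was not tested.

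**Figure D4:**
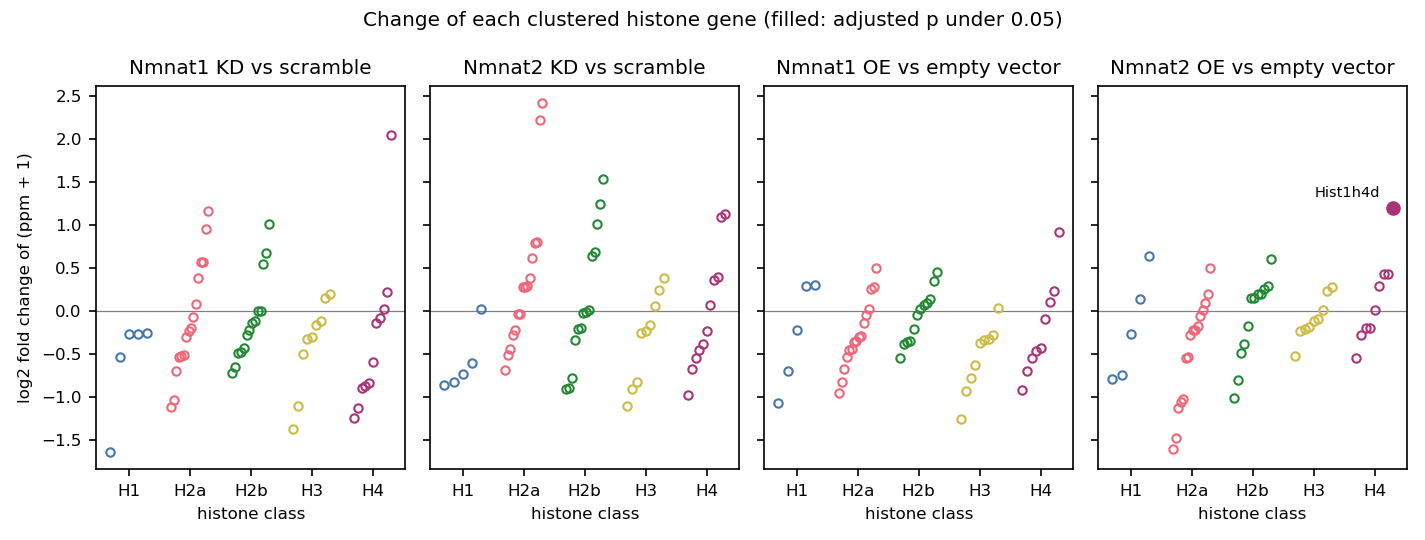
Log2 fold change of (ppm + 1) of each clustered histone gene against the control of its table, by class, with filled points for an adjusted p under 0.05 (limma). The filled point is Hist1h4d in Nmnat2 overexpression at 1.20, and points below 0 outnumber those above 0 in each panel (41, 31, 35 and 30 below). The medians were -0.27, -0.04, -0.33 and -0.17, against 0, -0.23, -0.04 and 0.06 over all genes tested. In the Nmnat2 knockdown the sign of the median depends on the scaling.

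The genes were also looked at by what their models and copies hold. Among genes with a stem-loop and over 150 further bases behind it, the median log2 fold change was -0.27 in the Nmnat1 knockdown (21 genes), 0.02 in the Nmnat2 knockdown, -0.21 with Nmnat1 (20 genes) and 0.12 with Nmnat2 overexpressed. Among genes with a stem-loop and at most 150 bases behind it, the medians were -0.31, -0.20, -0.40 and -0.46 in the same order (17 and 14 genes). Among the 17 genes with no stem-loop in the model they were -0.22, -0.03, -0.23 and -0.17. These are descriptions with no test. Genes with over 50% of their 31-base stretches shared had a median of -0.36 with Nmnat1 and -0.22 with Nmnat2 overexpressed (30 genes), and the other 21 genes had medians of -0.05 and 0.13. In the knockdowns the order was the opposite: such genes had medians of -0.14 with Nmnat1 and -0.04 with Nmnat2 knocked down (33 genes), and the other 22 genes had medians of -0.38 and -0.12.

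Genes that act on histones were taken from lists of replacement histones (11 measured), histone mRNA transcription and processing (12), histone chaperones (20) and S phase (21). None of these genes passed in any of the 4 comparisons with a control when all libraries were in the fit (limma). At an unadjusted p under 0.05 each list had between 0 and 4 genes in each comparison, where 9.57% to 16.8% of all genes passed. The most were 4 of 11 replacement histones with Nmnat2 overexpressed (1 higher, 3 lower), where 10.3% of all genes passed. With Nmnat1 overexpressed 1 of the 11 was higher and 2 were lower, where 9.57% of all genes passed. In the Nmnat2 knockdown the smallest p-values in each list were those of H1f0, the linker histone of non-dividing cells (log2 fold change -0.73, adjusted p 0.106), and H3f3a, a gene of replacement H3 (0.38, 0.178). Among processing genes they were those of Zfp473 (-0.88, 0.305) and Lsm10, a U7 particle subunit (-0.54, 0.420). Among chaperones they were those of the acetyltransferase Hat1 (-0.77, 0.180) and Chaf1b, a subunit of the chromatin assembly factor, (1.12, 0.191), and among S phase genes those of Gins1 (0.97, 0.149) and the thymidylate synthase gene Tyms (-0.79, 0.158).

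In Nmnat2 overexpression the smallest were those of Cenpa, the centromeric H3 (-0.64, 0.147), and H2afx (-0.55, 0.285). Slbp, which binds the stem-loop, was at 0.29 (0.475) and Lsm11, a U7 particle subunit, at 0.34 (0.770). The chaperone genes Nasp and Ubn1 were at 0.32 (0.308) and -0.32 (0.488), and the S phase genes Rrm1 and Cdt1 at 0.40 (0.295) and -0.48 (0.440). In the direct comparison of both knockdowns 2 of the listed genes passed, both higher with Nmnat1 than with Nmnat2 knocked down: H1f0 by 1.30 (adjusted p 0.00668) and Nap1l1, a chaperone of H2A and H2B, by 0.78 (0.0286). They are 1 of 11 replacement histones and 1 of 20 chaperones, against 2.06% of all genes tested, and counts this small say little about the lists. Without N2_2 the Nmnat2 knockdown had 4 of 11 replacement histones past the threshold (2 higher, 2 lower) and 2 of 12 processing genes (higher). It had 6 of 20 chaperones (5 higher, 1 lower) and 5 of 21 S phase genes (4 higher, 1 lower), against the 15% of all genes given above. The Nmnat1 knockdown then had 1 replacement histone and 1 processing gene higher and 1 S phase gene lower. Of its 20 chaperones 2 were higher and 3 lower, against 8.11% of all genes tested (4.61% higher and 3.49% lower). Between the knockdowns, replacement histones were then 3 higher and 3 lower, and chaperones 1 higher and 5 lower. There 1 of 12 processing genes and 5 of 21 S phase genes were lower. Of all genes tested 13.1% passed, 6.28% higher and 6.78% lower. Without the libraries numbered 1, Nmnat1 overexpression had 3 replacement histones higher and 1 lower. It also had 1 chaperone and 1 S phase gene higher, against 8.04% of all genes tested (4.43% higher and 3.61% lower). Nmnat2 overexpression then had 1 replacement histone higher and 2 lower, and 1 chaperone higher and 2 lower. It had 1 S phase gene higher, against 5.9% of all genes tested (3.27% higher and 2.62% lower). Between these arms 1 replacement histone was lower, against 0.183% of all genes in either direction. With all libraries in the fit, H1f0 differed between the knockdowns in the direction opposite to Hist1h2bc, Hist3h2ba and Hist1h4h.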

How the data were processed

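Retinal explants of ICR mice were electroporated, cultured and sorted for EGFP, and their total RNA was turned into cDNA (SMART-Seq v4) and libraries (Nextera DNA Flex), per the labels' protocols. The submitters' processing notes list Salmon 0.11.3, sleuth 0.30.0 and GRCm38.p6. The deposited values are called TPM by the authors, but the columns summed to 14.4 to 29.6 times 1000000 (knockdown) and 17.3 to 26.2 times 1000000 (overexpression), so they were used as a length-scaled signal of unknown unit, in place of the TPM that the design had assumed. An incomplete last line was dropped from each table.

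Values were rescaled to parts per 1000000 of their column (ppm). How many reads a library had is not known from the sources used here. The steps of low values, 78.9% to 85.0% of which were whole multiples of 1 read in each library at a tolerance of 0.1 (20% by chance), gave relative depths of 0.710 to 1.29 among knockdown and 0.804 to 1.14 among overexpression libraries. These covered low values of genes with 1 length only, so no count test was run.

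Genes at 1 ppm or more in 3 or more of 9 libraries (22233 and 20725) were tested on log2(ppm + 1) with limma 3.58.1 in R 4.3.3, with the 3 groups of a table in 1 fit, moderation with a mean-variance trend, two-sided p-values adjusted by Benjamini-Hochberg over all genes kept, and a threshold of 0.05. Log2 fold changes on this scale understate the change of low genes. The script was tested on simulated data. Plots were made in Python 3.11.15 (matplotlib 3.10.9). No test crosses the tables. Titles of 1 Nmnat2 knockdown and 1 Nmnat2 overexpression sample name Nmnat3, while their descriptions name Nmnat2, which was followed. Libraries of the knockdown table are called by their column names.

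Named with values in every library are Hist1h2bc, each histone gene past the threshold against its control, the highest gene of each class in a table and the 3 smallest p-values of each comparison with a control. From each list of related genes, those past the threshold, or else the 2 smallest p-values of the comparison described, are named. The members, the lists and these rules were chosen with earlier results of these data known. Alternatives were other pseudocounts, filters, scalings, fits and left-out libraries.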

Additional observations from a re-analysis of the deposited data

Results flagged for a closer look

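Between the Nmnat1 and the Nmnat2 knockdown, 3 of the 55 clustered histone genes passed the test (5.46%), against 2.06% of all genes tested. This use of the comparison was added after the values were seen. None of the 3 passed in either knockdown against scramble with all libraries in the fit. Without N2_2, Hist1h2bc (adjusted p 0.0463) and Hist3h2ba (0.0121) passed in the Nmnat2 knockdown against scramble (limma). In that fit 6 of the 55 genes passed (10.9%), against 15% of all genes tested. Each of the 3 calls between the knockdowns was lost on leaving out some single libraries. The difference (Nmnat1 minus Nmnat2, log2 scale, limma contrast of both arms) was -2.36 for Hist1h4h, -0.92 for Hist3h2ba and -1.66 for Hist1h2bc. In each of these genes the 3 libraries of the Nmnat1 knockdown lay below the 3 of the Nmnat2 knockdown, as in 6.37% of all genes tested. The cause of these differences was not tested.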

How the results depend on the processing

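The levels rest on few reads in most of these genes, and total depth is not known, so small differences in rare genes were not detectable. Without 1 library at a time, the 55 or 51 histone genes gave 0 to 5 calls in the Nmnat1 knockdown (0 to 1802 over all genes), 0 to 6 in the Nmnat2 knockdown (0 to 3331), 0 to 8 between the knockdowns (80 to 2904), 0 to 3 with Nmnat1 overexpressed (3 to 271), 0 to 1 with Nmnat2 overexpressed (3 to 301) and 0 to 0 between the overexpression arms (2 to 11). The highest values of the knockdown table all came without N2_2. The median log2 fold change of the histone genes then ranged from -0.39 to -0.22, -0.17 to 0.00, -0.26 to 0.13, -0.43 to -0.21, -0.21 to -0.02 and -0.16 to 0.03 in the same order. Hist1h2bc changed sign, to 0.08 with Nmnat1 overexpressed and without Nmnat1 library 2; not every named gene was recomputed in every comparison.

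A pseudocount of 0.1 gave 17 calls over all genes in the Nmnat1 knockdown in place of 32, and a median of the histone genes of -0.24 between the knockdowns. A pseudocount of 5 gave medians of -0.15 in the Nmnat1 knockdown, -0.13 with Nmnat1 overexpressed and -0.06 with Nmnat2 overexpressed. With no filter, calls over all genes were 14 and 32 in the Nmnat1 and the Nmnat2 knockdown (32 and 97 before) and 16 and 48 in the overexpression arms (25 and 114 before), the call of Hist1h4d was lost (0 histone genes), and the median in the Nmnat2 knockdown was -0.19. A filter at 5 ppm gave 190, 54 and 181 calls over all genes in the Nmnat2 knockdown and the overexpression arms of Nmnat1 and Nmnat2, and a median of -0.25 in the last. Quantile normalization gave 113, 173 and 42 calls over all genes in the Nmnat1 knockdown, the Nmnat2 knockdown and with Nmnat1 overexpressed, 5 histone calls between the knockdowns, and medians of -0.16, 0.24 and -0.49 in the Nmnat1 knockdown, the Nmnat2 knockdown and between them, -0.31 with Nmnat2 overexpressed and 0.06 between the overexpression arms. Median-of-ratios scaling gave 5 histone calls between the knockdowns with a median of -0.36, and 9 and 71 calls over all genes in the overexpression arms. The ratio of the summed histone signal of the Nmnat2 knockdown to scramble was then 1.27 in place of 1.05. For quantile normalization and median-of-ratios scaling, counts over all genes between the knockdowns are not given here. The 5 histone calls are therefore not read against all genes.

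The deposited values with a pseudocount of 20 gave 2, 0 and 17 calls over all genes in the Nmnat1 knockdown, the Nmnat2 knockdown and between them, with 0 histone genes between them, and 1, 59 and 2 with Nmnat1 overexpressed, with Nmnat2 overexpressed (0 histone genes) and between these arms, with medians of -0.17 in the Nmnat2 knockdown and -0.31 with Nmnat2 overexpressed. A fit on the groups compared alone gave 3 histone calls of 969 over all genes in the Nmnat1 knockdown, 0 over all genes in the Nmnat2 knockdown, 1 of 108 between them, 0 histone calls with Nmnat2 overexpressed, and 2 over all genes between the overexpression arms. With no mean-variance trend there were 1, 0 and 162 calls over all genes in the knockdown table, with 1 histone gene between the knockdowns, and 2 and 5 in the overexpression arms, with 0 histone genes. Array weights, which give libraries that stand apart less weight, gave 4 histone calls of 868, 18 of 5101 and 19 of 6072 in the Nmnat1 knockdown, the Nmnat2 knockdown and between them, the last with a median of 0.07, and 6 of 1540, 8 of 1251 and 25 over all genes in the overexpression table. Without the libraries numbered 1 there were 6 histone calls of 1666, 8 of 1222 and 1 of 38. The cause of these changes was not tested.

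Deviations of same-numbered overexpression libraries from their group means correlated by 0.03 to 0.46, over 0.1 in 7 of 9 pairs. The pairs at 0.07 and 0.03 are those of the third empty vector library, so the numbers were not taken to pair the arms with the empty vector, while between the arms every same-numbered pair was over 0.1 (0.46, 0.29 and 0.14). With the replicate number as a block, the overexpression table gave 1 histone call of 187 with Nmnat1 (Hist1h4d, adjusted p 0.0476) and 2 of 269 with Nmnat2 (Hist1h1e and Hist1h4d). Between the arms the block gave 0 of 4, the same counts as without it. For the knockdown table no paired analysis was possible, because its columns carry no number that ties them to a sample.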
